A study of Mus musculus with 6 samples.

Results

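The Notch pathway carries signals between neighbouring cells, and 10 of its genes were followed in mouse embryos that lack Smchd1, a chromatin protein needed for X inactivation. They were the receptor genes *Notch1*, *Notch2*, *Notch3* and *Notch4*, the ligand genes *Jag1*, *Jag2* and *Dll4*, and the target genes *Hes1*, *Hes5* and *Hey1*. The genes were chosen by symbol, and each was found at 1 locus, so that all 10 were taken from a table of 24207 loci. Sequenced RNA came from 6 male embryos collected at E9.5, 3 of genotype Smchd1+/+ (wildtype) and 3 of genotype Smchd1MommeD1/MommeD1 (mutant). The *MommeD1* allele carries a chemically induced nonsense mutation, and the mutant embryos were homozygous for it in every cell. The labels give both groups the background C57Bl6/J x FVB/n, whereas the study's text describes a backcross to a strain that is neither of these, so the background is uncertain. Whole embryos were used, and a difference in level cannot be told apart from a difference in the share of cells that express a gene.

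Notch receptors and their ligands both sit in the cell membrane. Binding of a ligand on one cell lets the receptor on the next be cut, first by an Adam protease and then by gamma-secretase, and the freed intracellular part enters the nucleus, where it joins Rbpj and a Mastermind protein at target genes. The Hes and Hey targets encode basic helix-loop-helix repressors, and the Hes proteins recruit Groucho corepressors. In the midgestation embryo the pathway keeps neural progenitors from becoming neurons, sets arterial identity in blood vessels, paces somite formation and helps to shape the heart.

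The genotypes were compared on 1 FPKM value each, made by the authors from the 3 embryos of that genotype, where FPKM counts fragments per kilobase of transcript, scaled to the mapped fragments of a library. The embryos were separate libraries, but values per embryo were not analysed here, so the differences are given without a test or a spread. The test that the authors' program made across the libraries was not used. The log2 ratio given throughout is mutant over wildtype after adding 0.1 FPKM to each. This addition shrinks the ratios of low genes, and strongly so where a level is near or below 0.1 FPKM. A gene was counted as past the threshold when it differed by at least 1.5-fold and its mean over the genotypes reached 1 FPKM. Transcripts of *Smchd1* itself were at 2.12 FPKM in the mutant and 34.0 FPKM in the wildtype. The table names its columns Smchd1_M and Smchd1_P without stating a genotype, and which is the mutant was taken from a description of the columns supplied with the gene list. The column so taken as mutant held the lower *Smchd1* level, and the study reports that the *MommeD1* allele strongly lowers *Smchd1* transcripts.

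None of the 10 genes was past the threshold in either direction. Among all 12463 loci whose mean reached 1 FPKM, 3.51% were higher and 1.47% were lower in the mutant by that measure. At 2-fold, where again none of the 10 genes was counted, the shares were 0.979% and 0.514%. The log2 ratio was above 0 for 7 of the genes and below 0 for 3, and their median was 0.08, against -0.01 for all loci. *Hes5* was closest to the threshold with 1.44-fold more transcripts in the mutant, followed by *Notch1* with 1.254-fold more. These 2 were also past a lower log2 threshold of 0.32, which 8.84% of all loci passed in the higher direction and 4.98% in the lower. The other 8 had log2 ratios of at most 0.24 in size.

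**Figure D1:**
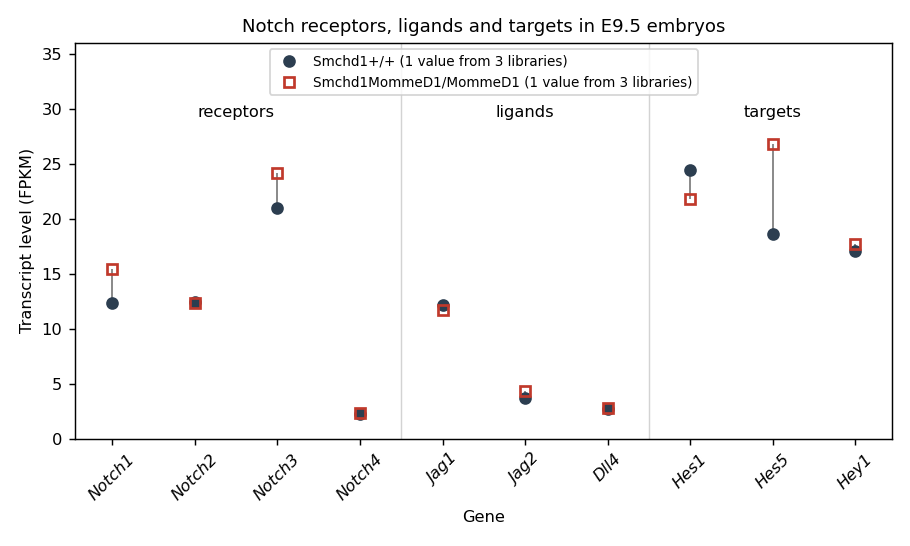
Transcript level in FPKM (vertical axis) of each of the 10 genes in wildtype (filled circles) and mutant (open squares) embryos, with the authors' 1 value per genotype from 3 libraries and no error bars, since no spread between embryos was analysed here. The symbols nearly coincide for *Notch2*, *Notch4*, *Jag1*, *Dll4* and *Hey1*, and the widest gap is that of *Hes5*, at 26.8 and 18.6 FPKM.

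Of the receptors, *Notch3* was the most abundant. Its locus lies on chromosome 17 of mm10, the build used throughout, from 32120821 to 32166852 on the minus strand. It was at 24.1 FPKM in the mutant and 21.0 FPKM in the wildtype, a log2 ratio of 0.20. Of all loci 84.9% had a lower ratio, and of those whose mean reached 20 FPKM 93.1% did. *Notch3* is best known from the mural cells around vessels and is also expressed in neural progenitors, and its level in the mutant was 1.15 times that in the wildtype. *Notch1*, the receptor used most widely in neural progenitors, endothelium and presomitic mesoderm, lies on chromosome 2 from 26457902 to 26509731. It was at 15.4 FPKM in the mutant and 12.3 FPKM in the wildtype, a log2 ratio of 0.32. That ratio was above those of 91.2% of loci. *Notch2*, on chromosome 3 from 98013538 to 98150443, was at 12.3 and 12.4 FPKM and had a log2 ratio of -0.01. *Notch1* and *Notch2* were thus level with each other in the wildtype, while in the mutant *Notch1* was the higher of the pair. *Notch4*, on chromosome 17 from 34564295 to 34588629, was the least abundant receptor at 2.37 FPKM in the mutant and 2.20 FPKM in the wildtype. This receptor is largely confined to endothelial cells, and its log2 ratio was 0.10.

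*Notch3* made up 44.5% of the summed receptor FPKM in the mutant and 43.8% in the wildtype. The share of *Notch1* was 28.4% against 25.7%, and that of *Notch2* was 22.7% against 25.9%. *Notch4* held 4.38% and 4.61%. The sum over the receptors was 1.13 times as high in the mutant, 54.2 FPKM against 47.9 FPKM.

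Among the ligands, *Jag1* was the most abundant of the 3 followed. It is needed in vessels, the heart and sensory organs, and its locus lies on chromosome 2 from 137081451 to 137116639. It was at 11.7 FPKM in the mutant and 12.2 FPKM in the wildtype, a log2 ratio of -0.06. *Jag2*, a ligand known from limb and craniofacial development, lies on chromosome 12 from 112907814 to 112929508. Its levels were 4.36 and 3.67 FPKM, a log2 ratio of 0.24. A lower ratio was found for 87.7% of all loci and for 75.8% of loci with a mean of 1 to 5 FPKM. *Dll4*, the ligand of arterial and sprouting endothelial cells, was at 2.77 and 2.73 FPKM, a log2 ratio of 0.02. The table places *Dll4* on chromosome 2 from 119321199 to 119335666, a span that it also gives to *Gm14207*, a transcript on the opposite strand. *Gm14207* was at 0.148 FPKM in the mutant and 0.115 FPKM in the wildtype, far below *Dll4*.

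The other canonical ligands are both made in the presomitic mesoderm and the neural tube. *Dll1*, which activates Notch there, was the most abundant canonical ligand in both genotypes, at 13.2 FPKM in the mutant and 12.8 FPKM in the wildtype. *Dll3*, which acts inside the cell and dampens signalling, was at 9.87 and 7.502 FPKM, a log2 ratio of 0.39 that was not past the threshold. The order *Dll1*, *Jag1*, *Dll3*, *Jag2*, *Dll4* was found in both genotypes. The largest difference in share was that of *Dll3*, from 19.3% of the summed ligand FPKM in the wildtype to 23.5% in the mutant. Neighbours in these orders cannot be told apart statistically without values per embryo.

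*Hes5* had the largest log2 ratio of the 10 genes. It is the Hes gene most closely tied to neural progenitors, and its locus lies on chromosome 4 from 154960923 to 154962371, with 3 exons in GENCODE M21. It was at 26.8 FPKM in the mutant and 18.6 FPKM in the wildtype, a log2 ratio of 0.52. That was above the ratios of 95.8% of all loci and of 98.7% of the 4209 loci whose mean reached 20 FPKM. In that band of levels 0.998% of loci were past 1.5-fold in the same direction. *Hes1*, which is expressed in progenitors of many tissues, was at 21.8 FPKM in the mutant and 24.4 FPKM in the wildtype. Its log2 ratio of -0.17 was the lowest of the 10 genes, so the 2 Hes genes lay on opposite sides of 0. *Hes1* was the higher of the pair in the wildtype and *Hes5* in the mutant. *Hes1* lies on chromosome 16 from 30065357 to 30067796. *Hey1*, a target in endothelium, heart and somites, lies on chromosome 3 from 8663359 to 8667038. Its levels of 17.7 and 17.0 FPKM gave a log2 ratio of 0.06.

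**Figure D2:**
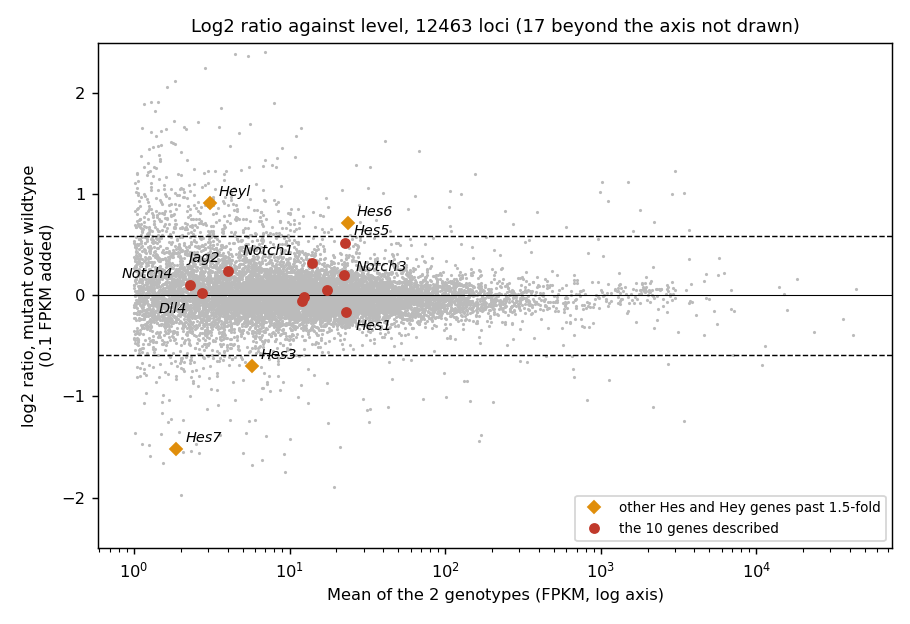
Log2 ratio of mutant over wildtype (vertical axis, 0.1 FPKM added) against the mean of the genotypes in FPKM (horizontal log axis) for loci whose mean reached 1 FPKM, in grey, with the 10 genes in red, *Hes3*, *Hes6*, *Hes7* and *Heyl* as orange diamonds and the 1.5-fold threshold dashed. The red points lie between the dashed lines, with *Hes5* nearest the upper one at 0.52, whereas the diamonds lie outside. Of the 12463 loci, 17 fall beyond the axis and are not drawn.

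The promoter of *Hes5* is shown because it held the letters bound by Rbpj on both strands, and that of *Hes7* because *Hes7* had the lowest log2 ratio among the pathway genes. The RefSeq promoter table for GRCm38.p6, the same assembly as mm10, held windows from 250 bases before to 50 bases after the start for 8 of the 10 genes, all but *Hes1* and *Hey1*. The letters searched were GTGGGAA on either strand, so that a match on the minus strand reads TTCCCAC. They are in capitals below, in the 250 bases before the start, which run along the plus strand at chr4:154960673-154960922 for *Hes5* and at chr11:69120203-69120452 for *Hes7*.
Hes5: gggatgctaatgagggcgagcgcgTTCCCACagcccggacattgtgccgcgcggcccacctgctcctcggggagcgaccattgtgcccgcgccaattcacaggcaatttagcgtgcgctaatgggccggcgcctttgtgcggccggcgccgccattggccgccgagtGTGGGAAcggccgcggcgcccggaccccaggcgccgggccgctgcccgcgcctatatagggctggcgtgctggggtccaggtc
Hes7: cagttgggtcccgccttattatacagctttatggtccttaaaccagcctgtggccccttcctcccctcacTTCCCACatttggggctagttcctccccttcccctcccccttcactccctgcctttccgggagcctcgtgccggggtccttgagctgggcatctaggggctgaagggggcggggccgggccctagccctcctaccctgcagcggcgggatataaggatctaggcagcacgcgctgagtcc
In *Hes5* the minus-strand match began 226 bases and the plus-strand match 83 bases before the start, with 136 bases between them. *Hes7* had 1 match, on the minus strand, which began 180 bases before the start. Of all 32851 promoter windows, 6.38% held the letters and 0.1% held them on both strands. Among the 8 windows of the genes followed, *Hes5* was the 1 with a match. *Hey2*, a further target whose window was in the table, also had a match on each strand, and *Hes6*, with 2 windows, had none. A match of letters is a description and is not a binding site, and windows without one say nothing about Rbpj.

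Of the Hes and Hey genes beyond the 3 followed, 4 were past the threshold. *Hes7*, a repressor of the segmentation clock in the presomitic mesoderm, was at 0.922 FPKM in the mutant and 2.83 FPKM in the wildtype, a log2 ratio of -1.52. *Hes3*, which is expressed in early neural progenitors and at the midbrain-hindbrain boundary, was at 4.35 and 7.14 FPKM, a log2 ratio of -0.70. Both were past the threshold in the lower direction. *Hes6* and *Heyl* were past it in the higher direction. *Hes6* promotes neuronal differentiation and opposes Hes1, and it was at 29.3 FPKM in the mutant and 17.9 FPKM in the wildtype, a log2 ratio of 0.71. *Heyl* was at 4.05 and 2.11 FPKM, a log2 ratio of 0.91. *Hey2*, a factor of arteries and ventricular heart muscle, was at 4.93 and 6.16 FPKM, a log2 ratio of -0.32 that was not past the threshold. *Hes2* had a mean below 1 FPKM. Of the 8 Hes and Hey genes at or above that mean, 2 were thus higher and 2 lower by at least 1.5-fold, against 3.51% and 1.47% of all loci. *Hes7* and *Heyl* had means of 1 to 5 FPKM, where 11.5% of loci were past the threshold in either direction. That share was 2.89% in the band of *Hes3*, 5 to 20 FPKM, and 1.85% in that of *Hes6*, 20 FPKM or more. The median log2 ratio of the 8 genes was -0.06, which became 0.06 when the floor was lowered to 0.1 FPKM or dropped.

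**Figure D3:**
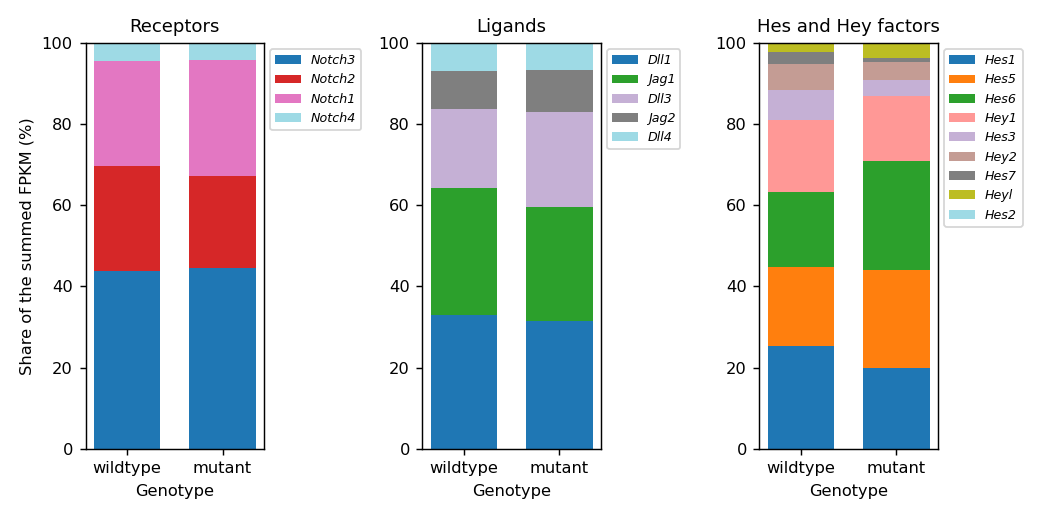
Share of the summed FPKM (vertical axis, percent) that each gene holds in its family, for receptors, canonical ligands and Hes and Hey factors, with 1 bar per genotype. The order of the ligands is the same in both genotypes, with *Dll3* at 19.3% in the wildtype and 23.5% in the mutant. Among the Hes and Hey factors *Hes6* held 18.6% in the wildtype and 26.6% in the mutant and *Hes1* 25.4% and 19.8%.

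The order of the abundant factors differed between the genotypes. In the wildtype it was *Hes1*, *Hes5*, *Hes6* and *Hey1*, and in the mutant it was *Hes6*, *Hes5*, *Hes1* and *Hey1*. *Hes5* held 24.3% of the summed FPKM of the family in the mutant and 19.3% in the wildtype. The sum itself was 110 FPKM against 96.2 FPKM.

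The wider pathway was taken from 11 lists by role with 74 genes, among them the 10 genes above. Of 67 entries whose mean reached 1 FPKM, 3 were higher and 2 lower by at least 1.5-fold, 7.46% in all, against 4.98% of all loci in either direction. The lower 2 were *Hes7* and *Hes3*, and the higher 3 were *Hes6*, *Heyl* and *Aes*. *Aes*, a short Groucho-family protein that lacks the WD repeats of its relatives, was at 53.3 FPKM in the mutant and 26.3 FPKM in the wildtype, a log2 ratio of 1.01. The median log2 ratio over the 67 entries was 0.04. With a floor of 0.1 FPKM, *Dner*, *Dlk2*, *Dtx1* and *Hes2*, all with a mean below 1 FPKM, were also higher past the threshold.

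No gene of the machinery between receptor and target gene was past the threshold, leaving aside the Groucho proteins. Of all loci, 4.98% were past it in either direction. The share was 11.5% at a mean of 1 to 5 FPKM, 2.89% at 5 to 20 FPKM and 1.85% at 20 FPKM or more. Few such genes would be found at those shares in lists of this length. *Rbpj*, the DNA-binding partner of the Notch intracellular domain, was at 32.8 FPKM in both genotypes. All 8 genes of its nuclear complex had log2 ratios between -0.11 and 0.17, and the most abundant, *Snw1*, was at 56.0 FPKM in the mutant and 56.9 FPKM in the wildtype. The 9 nuclear corepressor genes lay between -0.13 and 0.09. *Hdac2*, at 132 and 136 FPKM, had the highest mean over the genotypes, but in the mutant *Ctbp1* was higher at 134 FPKM. Of the genes that cut the receptor, 9 were at or above 1 FPKM and lay between -0.20 and 0.53. *Psenen*, a gamma-secretase subunit and the most abundant of these, was at 67.2 and 63.8 FPKM. The top of that range was *Aph1b*, another subunit, at 2.01 and 1.36 FPKM, a 1.48-fold difference, and 90.1% of loci with a mean of 1 to 5 FPKM had a lower log2 ratio. The 5 genes that add sugars to the receptor lay between 0.03 and 0.43, led in level by *Poglut1* at 26.7 and 26.2 FPKM, and the highest log2 ratio was that of *Mfng*, a Fringe glycosyltransferase. For ligand endocytosis 6 entries lay between -0.16 and 0.34, with *Epn1* the most abundant at 50.2 and 47.7 FPKM and *Neurl1a*, a ubiquitin ligase, at the top. *Mib1*, a ubiquitin ligase for the ligands, was listed at 2 entries.

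Negative regulators lay between -0.06 and 0.50 over 8 genes whose mean reached 1 FPKM. The top of that range was *Nrarp*, a feedback inhibitor that is itself switched on by Notch, at 31.0 FPKM in the mutant and 21.8 FPKM in the wildtype. By its mean over the genotypes *Nrarp* was the most abundant of the list, but in the wildtype *Dtx4* was higher at 22.2 FPKM. The 1.42-fold difference of *Nrarp* was close to that of *Hes5*. Of 3 non-canonical ligands, *Dlk1* alone reached 1 FPKM and was at 70.8 and 50.01 FPKM, a log2 ratio of 0.50. The Groucho list without *Aes* held *Tle1*, *Tle3* and *Tle4* at or above 1 FPKM, none of them past the threshold.

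**Figure D4:**
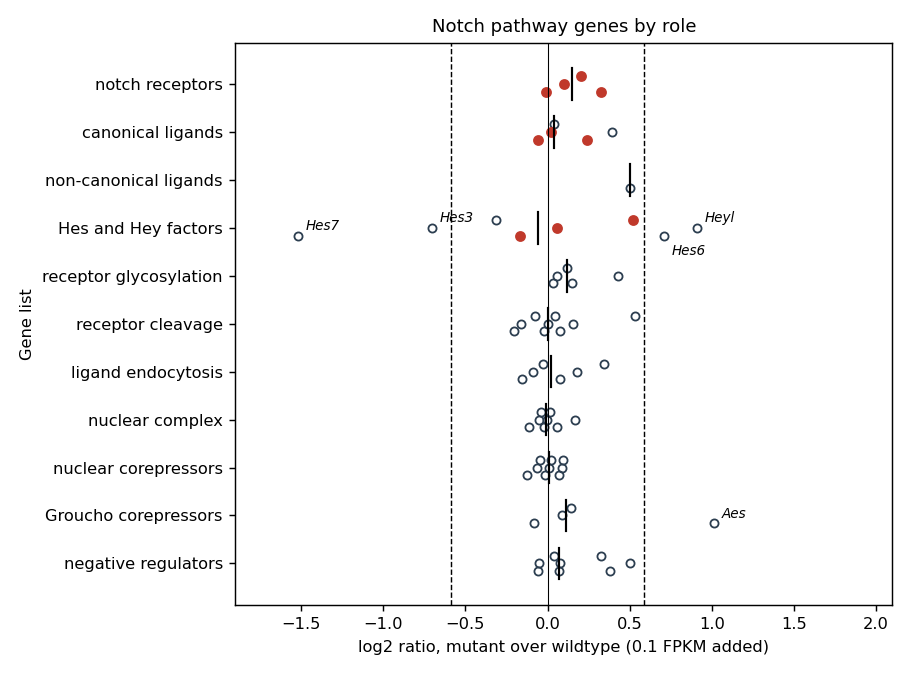
Log2 ratio of mutant over wildtype (horizontal axis, 0.1 FPKM added) for genes of the Notch pathway by role (rows), with the 10 genes filled in red, other genes open, the median of each list as a black bar and the 1.5-fold threshold dashed. The genes outside the dashed lines are *Hes7* and *Hes3* on the left and *Hes6*, *Heyl* and *Aes* on the right.

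Lists of the tissues in which the pathway works were set beside these values. Of all 12463 loci whose mean reached 1 FPKM, 3.51% were higher and 1.47% lower past the threshold. All 4 proneural factors reported here whose mean reached 1 FPKM had a log2 ratio above 0, and 3 were past the threshold. These transcription factors drive neuronal differentiation, switch on Delta ligands and are repressed by Hes proteins. *Neurog2*, the most abundant, was at 8.002 FPKM in the mutant and 5.45 FPKM in the wildtype and was not past it. *Neurog1* was at 7.96 and 4.39 FPKM, *Neurod1* at 5.55 and 2.83 FPKM, and *Neurod4* at 5.92 and 3.13 FPKM. The median over the list was 0.87.

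Neuron markers were higher in the mutant as well, with 9 of 10 past the threshold, a median log2 ratio of 1.255 and a summed level of 238 FPKM against 110 FPKM. *Tubb3*, the tubulin of newborn neurons and the most abundant, was at 99.9 and 37.0 FPKM. *Dcx*, *Nefm*, *Ina*, *Nefl* and *Elavl3* were also past the threshold, with log2 ratios of 1.67, 1.57, 1.46, 1.37 and 1.14. Neural progenitor markers, a list that also contains *Notch1*, had a median of 0.27, and without *Notch1* it was 0.21 over 9 genes. Of that list *Fabp7*, a gene of radial glia, was past the threshold at 43.1 and 20.6 FPKM. *Sox2*, a factor of all neural progenitors, was at 47.1 and 43.6 FPKM, and the most abundant, *Msi1*, was at 82.6 and 65.6 FPKM. Of the 10 progenitor markers 9 had a log2 ratio above 0, and *Pax6* lay below it at 14.5 FPKM in the mutant and 15.6 FPKM in the wildtype. The log2 ratio of *Hes5*, 0.52, was above the progenitor median and below the medians of proneural factors and neurons. The progenitor markers ran from -0.10 to 1.06, but *Fabp7* alone lay above *Hes5*. The next highest of them, *Nes*, had a log2 ratio of 0.518, just below that of *Hes5* at 0.523. The part of these cell types in the values of *Hes5*, *Hes6* and *Notch1* was not tested.

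None of the 17 endothelial markers whose mean reached 1 FPKM was past the threshold, against 4.98% of all loci in either direction. Their median log2 ratio was -0.05. *Lyve1*, with a mean below 1 FPKM, was at 0.313 FPKM in the mutant and 0.651 FPKM in the wildtype, a log2 ratio of -0.86. The summed level of all 18 markers was 191 FPKM in the mutant and 190 FPKM in the wildtype. *Plvap* had the highest mean over the genotypes at 23.4 and 21.1 FPKM, although in the wildtype *Egfl7* was higher at 22.0 FPKM. *Cdh5*, the cadherin of endothelial junctions, was at 19.1 and 19.7 FPKM. The 8 arterial genes had a median of 0.05, with *Efnb2*, an arterial gene that responds to Notch, the most abundant at 27.7 and 27.4 FPKM. The 3 venous genes had a median of 0.14 and were led by *Nr2f2* at 48.8 and 44.4 FPKM. Mural cell markers had a median of -0.11 over 5 genes, none past the threshold, and the median became 0.01 with a floor of either 0.1 or 5 FPKM. *Acta2*, the most abundant, was at 98.2 FPKM in the mutant and 132 FPKM in the wildtype. *Des* and *Pdgfrb* lay on the other side of 0, with log2 ratios of 0.28 and 0.13.

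The list of presomitic mesoderm and segmentation genes was split. *Msgn1* and *Tbx6*, factors of the presomitic mesoderm itself, were past the threshold in the lower direction along with *Hes7*, at 2.88 and 7.57 FPKM for *Msgn1* and at 1.67 and 3.004 FPKM for *Tbx6*. Their log2 ratios were -1.36 and -0.81. The other 8 of 11 genes whose mean reached 1 FPKM were not past it, and several of them are expressed widely outside this tissue. *Dusp6*, the most abundant, was at 38.6 and 36.6 FPKM, and *Lfng*, the glycosyltransferase of the clock, was at 17.2 and 15.9 FPKM. The median over the 11 was 0.05, and it became -0.22 over 15 genes when the floor was lowered to 0.1 FPKM or dropped. The 4 genes that this adds, *Mesp1*, *Mesp2*, *Ripply1* and *Ripply2*, act as somites form, had means below 1 FPKM, and were all lower in the mutant, with log2 ratios of -1.88, -0.99, -0.59 and -1.53. The part of presomitic cells in the level of *Hes7* was not tested.

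**Figure D5:**
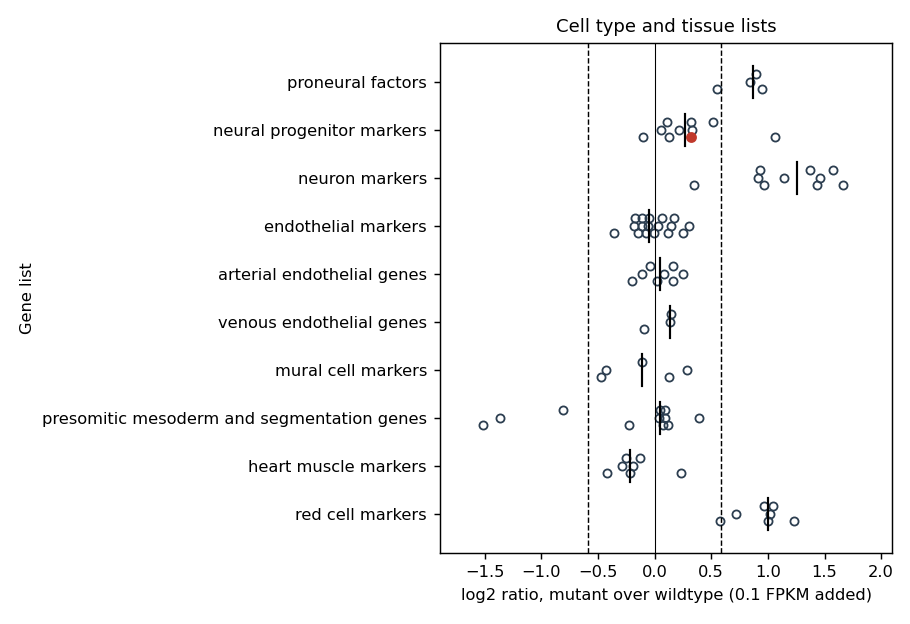
Log2 ratio of mutant over wildtype (horizontal axis, 0.1 FPKM added) for genes of each cell type or tissue list whose mean reached 1 FPKM (rows), with *Notch1* filled in red, the median as a black bar and the 1.5-fold threshold dashed. Neuron, proneural and red cell genes lie to the right, with medians of 1.255, 0.87 and 1.003, and endothelial genes are spread around 0.

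The precision of these values could be judged only roughly. The lowest products of FPKM and locus length in kilobases at olfactory receptor loci under 1100 bp clustered near 0.0193 in the mutant (15 of 22 loci above 0) and near 0.0216 in the wildtype (14 of 16). If these stand for 1 read in 1 embryo, the 10 genes were covered by about 473 to 9991 reads per genotype. Counting alone would then give the log2 ratios a standard error of 0.02 to 0.09, with 0.06 for *Hes5* and 0.18 for *Hes7*. For the low genes *Mesp1*, *Mesp2*, *Ripply1* and *Ripply2* it would be 1.39, 0.44, 0.38 and 0.57, and the ratio of *Mesp1* rests on about 1 read in the mutant. Such errors leave out differences between embryos, which were not measured here. The libraries did not keep strand, so reads of a gene and of a transcript on the opposite strand cannot be told apart. This concerns 5 of the 10 genes. They are *Hes5*, where GENCODE M21 has *Gm20421* on the opposite strand over 756 of 1449 bp, *Notch3* with *Gm17276*, *Notch1* with *0610009E02Rik* over 1488 bp and *Gm13568* over 414 bp, *Notch4* with the pseudogene *Gm20462*, and *Dll4* with *Gm14207*. It also concerns *Hes7* with *9130213A22Rik* and *Dll1* with *A930024N18Rik*.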

How the data were processed

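Values came from the authors' Cuffdiff table of the E9.5 male embryos, with 3 embryos per genotype sequenced as separate libraries and combined by the authors into 1 FPKM value per locus. According to the labels and the methods, reads of 100 bp were mapped to mm10 with TopHat2 2.0.6 and Bowtie2 2.0.2, and Cufflinks and Cuffdiff 2.0.2 were run; the annotation release is not given in the sources used here. The table's fold changes, test statistics, p-values and q-values are the authors' own comparison and were not used. The column names do not state a genotype, and mutant and wildtype were assigned from a description supplied with the gene list. Starts were raised by 1 to count from 1, after which 5646 of 20983 symbols matched the GENCODE M21 start against 620 before.

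Log2 ratios, counts past 1.5-fold and medians were computed with 0.1 FPKM added and a floor of 1 FPKM on the mean, over all loci at once, in Python 3.11.15 with numpy 2.4.6 and pandas 2.3.3. The steps were tested on simulated data. *Map2* was found under its older symbol *Mtap2*. All 10 genes were named, and from 21 lists the most abundant gene by its mean over the genotypes and up to 6 genes past the threshold. Other genes named were chosen after their values were seen. Genes and lists were chosen with earlier results of these data known. The lists were the 11 pathway roles and genes of neurons, progenitors, proneural factors, endothelium, arteries, veins, mural cells, presomitic mesoderm, heart muscle and red cells. Alternatives were other pseudocounts, floors, folds and scalings, and loci with status OK alone. 1 gene of the proneural list is not reported here and was taken out of its counts and median. No sample was left out.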

Additional observations from a re-analysis of the deposited data

How the results depend on the processing

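Every log2 ratio of the 10 genes kept its sign in the 9 alternatives of pseudocount, floor, scaling and locus status that could be run for it, and none moved by as much as 0.1 in any of the 87 values, with *Hes5* between 0.50 and 0.53, *Notch1* between 0.30 and 0.33 and *Hes1* between -0.18 and -0.16. *Notch4*, *Jag2* and *Dll4* have no value with a floor of 5 FPKM. The count of the 10 genes past the threshold was 0 in both directions except with a log2 threshold of 0.32, which gave 2 higher (*Hes5* and *Notch1*), where 8.84% of all loci were past it. In the wider pathway the higher entries numbered 7 of 74 with a floor of 0.1 FPKM, 7 of 75 with no floor and 2 of 56 with a floor of 5 FPKM. They numbered 13 of 67 with a log2 threshold of 0.32 and 1 of 67 with a fold of 2. The lower entries numbered 1 of 56 with a floor of 5 FPKM and 1 of 67 with a fold of 2. Over all loci, higher and lower counts were 1085 and 481 of 16200 with a floor of 0.1 FPKM and 134 and 80 of 8917 with a floor of 5 FPKM. With no floor they were 1242 and 589 of 19552. Of 12463 loci they were 253 and 112 with 1 FPKM added. With a log2 threshold of 0.32 they were 1102 and 621 of 12463, or 8.84% and 4.98%. With a fold of 2 they were 122 and 64 of 12463, or 0.979% and 0.514%. Of 189 list medians, 178 moved by less than 0.1. Medians that changed sign with the floor (presomitic genes, mural cells, Hes and Hey factors) are given beside their main values. The medians of ligand endocytosis, receptor cleavage and nuclear corepressors, all near 0, also changed sign in some alternatives without moving by as much as 0.1. No paired analysis was possible because the table holds 1 value per genotype, and for the same reason no embryo could be left out.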

Other observations

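Heart and blood are further tissues in which Notch receptors act. Of all loci, 3.51% were past 1.5-fold in the higher direction and 1.47% in the lower. Of 7 heart muscle markers, 6 had a log2 ratio below 0 and none was past 1.5-fold, with a median of -0.22. *Myl7*, an atrial myosin light chain and the most abundant, was at 317 FPKM in the mutant and 425 FPKM in the wildtype. *Myl2*, the ventricular myosin light chain, was on the other side of 0 at 104 and 88.6 FPKM, a log2 ratio of 0.23. The ventricular factor *Hey2* had a log2 ratio of -0.32. Of 7 red cell markers, 6 were past 1.5-fold in the higher direction, with a median of 1.003. The embryonic globin gene *Hba-x* was the most abundant, at 4602 and 2274 FPKM, and *Hbb-y* had the largest log2 ratio, 1.23.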
